A study of Homo sapiens with 12 samples.

Results

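Alpha satellite (ALR) and the smaller satellite repeats CER, SATR1 and SATR2 were followed through 12 stranded total RNA libraries of the established cell line THP-1, which grew from a monocytic acute myeloid leukaemia. They are the 4 satellites other than SST1 in tables of 45 repeat elements and were taken by element name. With the plus and minus columns kept apart they make 8 of 90 features. All libraries came from cells transduced with an sgRNA and selected in 1 µg/ml puromycin from 48 h. One arm carried SETDB1 sgRNA 9 and was collected at day 4 (3 libraries) and at day 7 (3 libraries), and the other carried a non-targeting sgRNA (the controls) and was collected at the same days (3 libraries each). The design text also names a SETDB1 sgRNA 6, and the groups used here follow the titles, which name sgRNA 9 alone. The series asks whether repeats are transcribed in both directions after SETDB1 depletion, which makes the strand balance of each satellite one of its outcomes. RNA came from bulk cultures, in which fewer cells of a type and less RNA per cell cannot be told apart. SETDB1 and the blood cell markers looked for (11 gene names) had 0 rows in these element tables, so neither the depletion nor the cell type was checked from them.

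Satellites are short units repeated in tandem over long arrays. Alpha satellite is the repeat on which human centromeres are built, and a small part of it is transcribed in normal cells. Satellite arrays are packed in constitutive heterochromatin, marked by trimethylated lysine 9 of histone H3, which the enzymes SUV39H1 and SUV39H2 are best known for placing there. SETDB1 writes the same mark and is known above all for silencing retroelements together with TRIM28. CER, SATR1 and SATR2 are much less studied satellites. The copies of a satellite resemble each other closely, and the counts are not assigned to an array or chromosome.

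The deposited tables summed to between 27388 and 58916 counts per library. Levels are given as counts and as CPM, in which the counts of the 45 elements of a library are scaled to a fixed total, so that each change is relative to the other repeats in the table. ALR held 76.1% of the 3555 satellite counts of these 4 elements, SATR1 15.1%, CER 5.46% and SATR2 3.26%. In the SETDB1 libraries the 4 satellites together took 0.983% ± 0.055 of the table at day 4 and 0.778% ± 0.141 at day 7, against 0.441% ± 0.018 and 0.430% ± 0.063 in the non-targeting libraries of those days (SD, n = 3). The low-count filter kept 5 of the 8 features for testing: both strands of ALR and SATR1, and the plus strand of CER. The sources do not say which column is the sense strand of a satellite. No source states that replicates were grown separately, and p-values therefore rest on a spread that may be technical.

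ALR was higher on both strands in SETDB1 libraries, most of all on the minus strand at day 4. The minus strand had 174, 202 and 254 counts in the SETDB1 libraries of day 4, against 25, 19 and 29 in the non-targeting ones. All SETDB1 libraries lay far above all controls. In CPM this was 4329 ± 676 in SETDB1 libraries and 773 ± 183 in control libraries (SD, n = 3). This was a 5.60-fold rise, a log2 change of 2.49 ± 0.20 (SE; quasi-likelihood test of edgeR, p adjusted by the Benjamini-Hochberg method over 70 features = 2.54e-12). Only SST1 plus strand ranked above it among the 70 features tested. At day 7 the minus strand had 69, 130 and 138 counts in SETDB1 libraries and 40, 29 and 27 in control libraries. The arms again did not overlap, at 2152 ± 438 CPM in SETDB1 libraries and 948 ± 89 CPM in controls (SD, n = 3), and the rise was 2.28-fold (1.19 ± 0.20, SE; edgeR adjusted p = 1.15e-05).

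The plus strand of ALR held 175, 174 and 272 counts in SETDB1 libraries at day 4, against 81, 55 and 62 in control libraries. It was the more abundant strand of alpha satellite in every non-targeting library of both days. The same held in every SETDB1 library except day 4 replicate 2, which had 174 plus and 202 minus strand counts. By group, the plus strand compared as follows at day 4. It averaged 4224 ± 696 CPM in the SETDB1 arm and 2075 ± 271 CPM in the control arm (SD, n = 3), a 2.03-fold rise with no overlap (log2 1.02 ± 0.21, SE; edgeR adjusted p = 0.000422). At day 7 its counts were 76, 225 and 229 in SETDB1 libraries and 92, 87 and 43 in control libraries. Replicate 1 of the SETDB1 arm, at 1875 CPM, lay within the control range of 1525 to 2561 CPM, while replicates 2 and 3 lay above it. The plus strand averaged 3306 ± 1265 CPM in SETDB1 libraries and 2153 ± 552 CPM in controls (SD, n = 3), and the log2 change of 0.62 ± 0.21 passed (SE; edgeR adjusted p = 0.0139). That call was lost with DESeq2 (adjusted p = 0.0718), without SETDB1 day 7 replicate 2 (log2 0.52) or replicate 3 (0.40), without non-targeting day 7 replicate 3 (0.44), with the libraries of day 7 fitted alone (0.38) and with all low-count features kept (0.45). The same SETDB1 replicate 1 had the highest SST1 plus strand level of its group, 18233 CPM against 13573 and 12120 CPM.

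**Figure D1:**
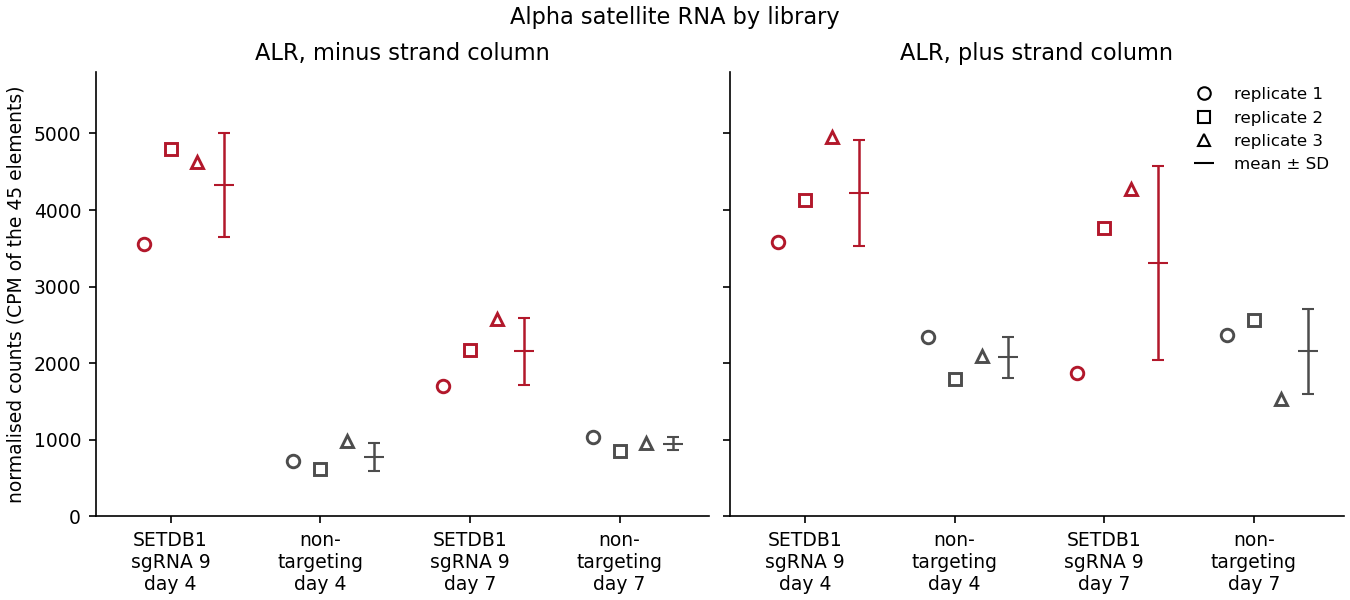
Normalised ALR counts in CPM of the 45 tabulated elements (y axis, linear) in each library of the 4 groups (x axis), with the minus strand left and the plus strand right. Open symbols are replicates, and the bar beside them is the mean ± SD. On the minus strand every SETDB1 library lies above every non-targeting library at both days, whereas on the plus strand at day 7 SETDB1 replicate 1 lies among the controls.

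The gain in ALR minus strand was smaller at day 7 than at day 4. The day 7 effect was below the day 4 effect by a log2 difference of -1.30 ± 0.30 (SE; edgeR interaction test, adjusted p = 0.00326), the lowest value of the 70 features. The background of this comparison was 2.86% of features lower and 2.86% higher, 2 each. Over the alternatives it ran between 1 and 8 lower (8 with DESeq2) and between 2 and 7 higher (7 with table totals). Within the SETDB1 arm ALR minus strand was 0.502-fold at day 7 relative to day 4 (log2 -0.99 ± 0.16, SE; edgeR adjusted p = 1.23e-05), which was 1 feature of the 70 called lower (1.43%), where 11.4% were called higher. A fall of nearly the same size was found outside the satellites, since the lowest LINE feature was at -0.98 (log2) without being called. The number called lower was 5 with DESeq2 size factors, 8 with the DESeq2 test and 16 without non-targeting day 4 replicate 2. It was 3 without SETDB1 day 4 replicate 1 or 2, and 2 without SETDB1 day 4 replicate 3 or SETDB1 day 7 replicate 2. With the replicate block and with all low-count features kept it was also 2. ALR minus strand thus did not stand alone in those fits. The SETDB1 libraries of the days did not overlap for ALR minus strand and for SATR1 plus strand, where the background of no overlap was 34.3%. SATR1 plus strand was at 0.49 ± 0.23 between the days in this arm and did not pass (log2, SE; edgeR adjusted p = 0.149). In the non-targeting arm ALR minus strand was at 948 ± 89 CPM at day 7 and 773 ± 183 CPM at day 4 (SD, n = 3; log2 0.30 ± 0.25, SE; edgeR adjusted p = 0.746). For ALR plus strand the interaction was -0.40 ± 0.31 (log2, SE; edgeR adjusted p = 0.407), and the change between the days in the SETDB1 arm was -0.34 ± 0.19 (log2, SE; edgeR adjusted p = 0.215). That change passed without non-targeting day 4 replicate 2 (-0.49, edgeR adjusted p = 0.0255). None of the 5 tested satellite features differed between the days in the non-targeting arm in edgeR, 0 at an unadjusted p under 0.05 and 0 with DESeq2, where the background was 2.86% of features in each direction and 18.6% without overlap.

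ALR counts were nearly balanced between the strands in the SETDB1 libraries of day 4 and mostly plus in their controls. The minus strand held 50.6% ± 2.8 of its counts in SETDB1 libraries and 27.0% ± 4.3 in control libraries (SD, n = 3; 630 of 1251 and 73 of 271 counts). Every SETDB1 library was at 48.3% or more and every non-targeting one at 31.9% or less. This is a ratio within a library and does not depend on scaling between libraries. The minus-to-plus odds rose 2.76-fold (log2 1.46 ± 0.26, SE; edgeR adjusted p = 3.18e-06 over 39 elements), against a median change of -0.25 over those elements, and it was the 1 element called higher (2.56%), where 10.3% were called lower. With all low-count elements kept, without SETDB1 day 4 replicate 1 or without non-targeting day 4 replicate 2, 3 elements were higher, and without SETDB1 day 7 replicate 3 there were 2. At day 7 the minus strand held 40.6% ± 6.1 in SETDB1 libraries and 31.3% ± 6.8 in control libraries (SD, n = 3). Replicate 3 of the control arm, at 38.6%, lay above 2 of the SETDB1 libraries, and the log2 odds change of 0.58 ± 0.25 did not pass (SE; edgeR adjusted p = 0.0669), although it did without that control library (0.76, edgeR adjusted p = 0.0249). At day 7 the background was 7.69% of elements higher and 25.6% lower. The share effects of the days differed by -0.88 ± 0.36 (log2 odds, SE; edgeR adjusted p = 0.169), which did not pass.

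**Figure D2:**
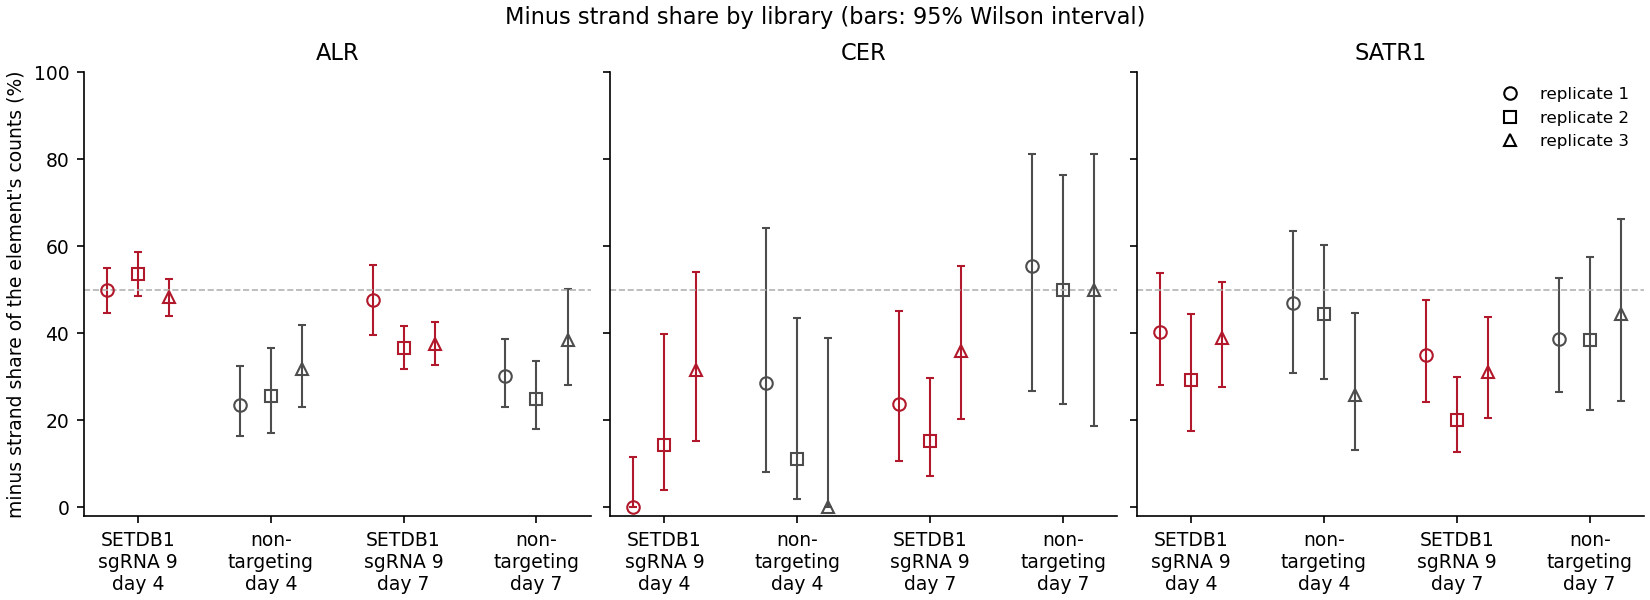
Share of an element's counts in the minus column (y axis, %) for ALR, CER and SATR1 in each library of the 4 groups (x axis). Symbols are replicates, bars are 95% Wilson intervals that cover counting error only, and the dashed line marks equal strands. ALR lies near the line in the 3 SETDB1 libraries of day 4 and between 23.6% and 31.9% in the 3 controls of that day, while the intervals of CER and SATR1 are wide.

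CER rose in SETDB1 libraries on its plus strand at day 7. It had 16, 33 and 16 plus strand counts in the SETDB1 libraries and 4, 5 and 3 in the non-targeting ones. The arms did not overlap, at 415 ± 128 CPM in SETDB1 libraries and 119 ± 25 CPM in controls (SD, n = 3), a 3.47-fold rise (log2 1.797 ± 0.473, SE; edgeR adjusted p = 0.00195). At day 4 the counts were 29, 12 and 13 in SETDB1 libraries, against 5, 8 and 6 in controls. In CPM the day 4 arms overlapped, since SETDB1 replicate 3 stood at 237 CPM and non-targeting replicate 2 at 261 CPM. The log2 change of 0.88 ± 0.44 did not pass (SE; edgeR adjusted p = 0.163), and it was 0.36 without SETDB1 day 4 replicate 1. CER plus strand reached the low-count limit in 2 SETDB1 libraries and 1 control library at day 4, and in 3 SETDB1 libraries and 0 control libraries at day 7. At day 7 it was thus above the limit through the arm in which it is high, and its p is read with that limit.

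The minus strand of CER had few counts and did not pass the low-count filter. It held 0, 2 and 6 counts in the SETDB1 libraries and 2, 1 and 0 in the non-targeting ones at day 4, and 5, 6 and 9 in SETDB1 libraries against 5, 5 and 3 in controls at day 7. The arms overlapped or touched at both days. In the fit with all features kept its log2 changes were 0.70 ± 1.01 at day 4 and -0.16 ± 0.59 at day 7 (SE; edgeR adjusted p = 0.771 and 0.900). With the strands summed, CER stood at 499 ± 106 CPM in SETDB1 libraries and 250 ± 35 CPM in control libraries at day 7 (SD, n = 3; log2 0.98 ± 0.30, SE; edgeR adjusted p = 0.00783). This summed call was lost without SETDB1 day 7 replicate 2 (0.80, edgeR adjusted p = 0.0507). The summed change at day 4 was 0.74 ± 0.32 (log2, SE; edgeR adjusted p = 0.0778); it became a call without SETDB1 day 4 replicate 3 (1.06), without non-targeting day 4 replicate 2 (1.09) or without non-targeting day 7 replicate 3 (0.87). The minus strand share of CER at day 7 was 25.1% ± 10.4 in SETDB1 libraries and 51.9% ± 3.2 in control libraries (SD, n = 3; 20 of 85 and 13 of 25 counts). At day 4 it was 15.3% ± 15.8 in SETDB1 libraries and 13.2% ± 14.4 in controls (SD, n = 3; 8 of 62 and 3 of 22 counts; log2 odds -0.12 ± 1.85, SE; edgeR adjusted p = 0.998), so that the share in controls also differed widely between the days. The log2 odds change at day 7, -1.78 ± 0.81, did not pass (SE; edgeR adjusted p = 0.0817), but did without SETDB1 day 4 replicate 1 (adjusted p = 0.048) or SETDB1 day 7 replicate 3 (-2.23).

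SATR1 plus strand rose at day 7, a call that depended on single libraries. Its plus strand counts were 39, 64 and 40 in SETDB1 libraries and 30, 16 and 10 in control libraries at that day. In CPM it was at 927 ± 165 in SETDB1 libraries and 533 ± 216 in controls (SD, n = 3), and the arms overlapped, since SETDB1 replicate 3 stood at 747 CPM and non-targeting replicate 1 at 774 CPM. The rise was 1.68-fold (log2 0.75 ± 0.26, SE; edgeR adjusted p = 0.0139). It was lost without SETDB1 day 7 replicate 2 (0.62), non-targeting day 7 replicate 2 (0.65) or replicate 3 (0.56), or non-targeting day 4 replicate 2 (0.63, edgeR adjusted p = 0.0501), with the libraries of day 7 alone (0.51) and with all low-count features kept (0.58). Without non-targeting day 7 replicate 1 the change was 1.15. At day 4 the plus strand counts were 31, 29 and 36 in SETDB1 libraries, against 17, 20 and 20 in controls. In CPM this was 660 ± 28 in SETDB1 libraries and 606 ± 100 in controls (SD, n = 3), a log2 change of 0.13 ± 0.28 with a 95% interval of -0.43 to 0.69 (edgeR adjusted p = 0.847).

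SATR1 minus strand had 21, 12 and 23 counts in the SETDB1 libraries and 15, 16 and 7 in the non-targeting ones at day 4. At day 7 it had 21, 16 and 18 counts in SETDB1 libraries, against 19, 10 and 8 in controls. The arms overlapped at both days, with log2 changes of -0.063 ± 0.357 at day 4 and -0.016 ± 0.357 at day 7 (SE; edgeR adjusted p = 0.954 and 0.964), and the sign at day 7 turned with the scaling. The 95% interval at day 7, -0.74 to 0.71, holds changes of either sign. The minus strand share of SATR1 was 28.7% ± 7.8 in SETDB1 libraries and 40.6% ± 3.4 in control libraries at day 7 (SD, n = 3; log2 odds -0.77 ± 0.46, SE; edgeR adjusted p = 0.179). At day 4 it was 36.2% ± 6.1 in SETDB1 libraries and 39.1% ± 11.5 in controls (SD, n = 3; log2 odds -0.19 ± 0.46, SE; edgeR adjusted p = 0.853). With the strands summed SATR1 did not pass at either day (log2 -0.071 ± 0.251 and 0.35 ± 0.24, SE; edgeR adjusted p = 0.863 and 0.231), though the day 7 change passed without non-targeting day 7 replicate 1 (0.71) and with table totals (0.59).

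SATR2 had the fewest counts, and neither of its strands passed the low-count filter. Its plus strand held 11, 5 and 10 counts in SETDB1 libraries and 6, 3 and 2 in control libraries at day 4, and 10, 10 and 14 in SETDB1 libraries against 6, 5 and 4 in controls at day 7. Its minus strand held 1, 7 and 2 counts in SETDB1 libraries against 2, 1 and 2 in controls at day 4, and 1, 4 and 4 in SETDB1 libraries against 2, 4 and 0 in controls at day 7. The plus strand overlapped between the arms at day 4, and the minus strand at both days. As deposited, the day 7 plus strand was higher in every SETDB1 library, with means of 11.3 ± 2.3 counts in SETDB1 libraries and 5 ± 1 in controls (SD, n = 3; two-sided exact permutation p = 0.1, the lowest value possible with 3 libraries an arm). Scaled to the table in the fit with all features kept, the plus strand did not pass at either day (log2 0.57 ± 0.53 at day 4 and 0.40 ± 0.47 at day 7, SE; edgeR adjusted p = 0.551 and 0.573), nor did the minus strand (0.33 ± 0.89 and -0.19 ± 0.87, SE; edgeR adjusted p = 0.909 and 0.929). Summed over strands and scaled, SATR2 was at 254 ± 34 CPM in SETDB1 libraries and 206 ± 55 CPM in control libraries at day 7 (SD, n = 3). Its summed log2 changes of 0.42 ± 0.31 at day 4 and 0.26 ± 0.28 at day 7 did not pass (SE; edgeR adjusted p = 0.431 and 0.576).

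**Figure D3:**
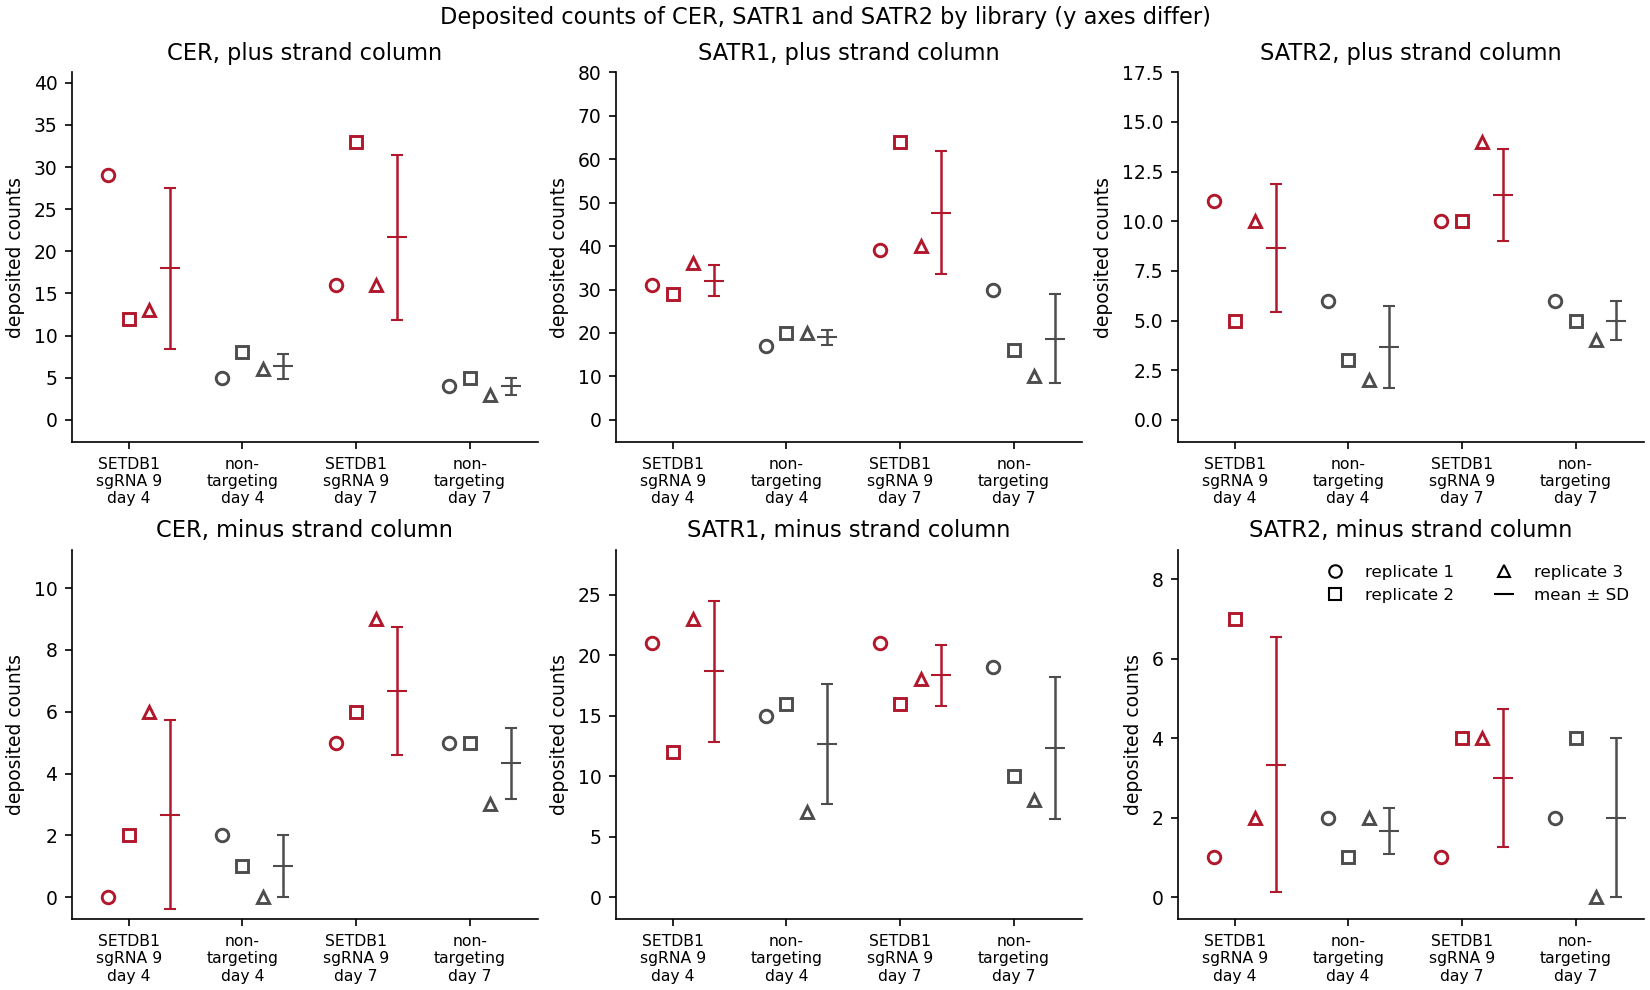
Deposited counts (y axes, linear, a different range in each panel) of CER, SATR1 and SATR2 in the plus column (top) and the minus column (bottom) for each library of the 4 groups (x axes). Open symbols are replicates, and the bar beside them is the mean ± SD. These are counts before scaling; CER plus strand stands at 16 to 33 in the SETDB1 libraries and 3 to 5 in the controls at day 7, while most minus columns overlap between arms.

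Set beside the rest of the table, 2 of the 5 tested satellite features were called higher at day 4, where the background was 15.7% of 70 features. At day 7 it was 4 of 5, against 30.0%. That count was 3 with DESeq2, and 2 without SETDB1 day 7 replicate 2, without non-targeting day 7 replicate 3, with all low-count features kept and with the libraries of day 7 alone. The arms did not overlap for 2 of the 5 at each day, where the background was 25.7% at day 4 and 55.7% at day 7. In neither day was one of the 5 called lower in edgeR (0 also with DESeq2, and 0 lower at an unadjusted p under 0.05), where 8.57% of features were lower at day 4 and 25.7% at day 7. Of all features 11 were called higher and 6 lower at day 4, which became 8 and 9 with table totals and 35 and 0 with unscaled counts, and at day 7 the 21 higher and 18 lower became 11 and 21 with the libraries of that day alone and 37 and 1 with unscaled counts. The median log2 change of the 5 was 0.88 at day 4 and 0.75 at day 7, beside 0.038 and 0.16 over all features tested. The 35 LINE features had medians of 0.074 and 0.080, and the 28 LTR retroelement features had -0.021 and 0.11. CER plus strand reached the low-count limit at day 7 in its higher arm alone, and 3 satellite features did not pass the filter. These counts and medians therefore describe the tested features and support nothing about the satellites as a set. Without CER plus strand the counts were 2 of 4 at day 4 and 3 of 4 at day 7. With strands summed, 1 of the 4 satellites (ALR, log2 1.46 ± 0.20, SE) was called higher at day 4 against a background of 14.3% of 42 elements. At day 7 it was 2 (ALR, 0.64 ± 0.20, SE, and CER), against 16.7%. The 7 elements behind that share became 19 with table totals, 26 with unscaled counts and 14 without SETDB1 day 4 replicate 1 or 3 or non-targeting day 4 replicate 2. At day 4 the 6 higher and 7 lower elements became 9 higher and 3 lower under DESeq2 size factors, or 20 higher and 0 lower without scaling, and leaving out 1 library gave 4 to 11 higher and 1 to 11 lower. None of the 4 was called lower in edgeR (0 at an unadjusted p under 0.05), where 16.7% of elements were at day 4 and 33.3% at day 7.

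**Figure D4:**
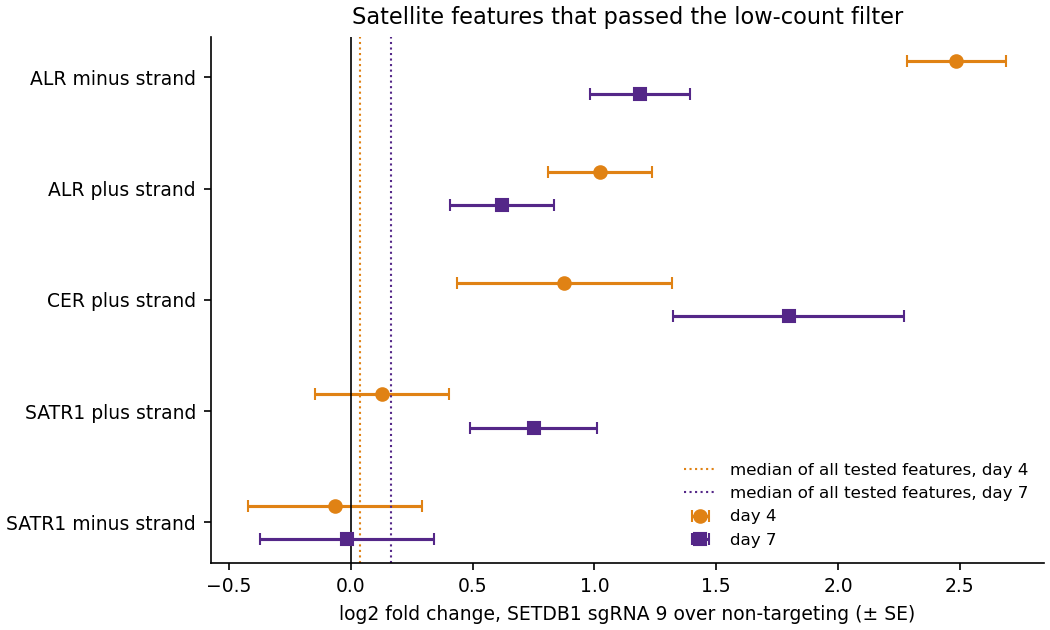
Log2 fold change of SETDB1 sgRNA 9 over non-targeting libraries (x axis, points ± SE) for the 5 satellite features that passed the low-count filter (y axis), at day 4 (circles) and day 7 (squares). Dotted lines are the medians of all 70 tested features, 0.038 at day 4 and 0.16 at day 7. ALR minus strand is at 2.49 at day 4 and at 1.19 at day 7, and SATR1 minus strand lies near 0 at both days.

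SST1, a satellite outside this set, is the other abundant one of the tables, and the ratio of ALR to SST1 within a library is free of scaling. On the minus strand the log2 ratio was 0.29, 0.94 and 0.57 in the SETDB1 libraries of day 4, against -1.41, -2.19 and -0.79 in the non-targeting ones. ALR was thus the more abundant of the pair in all SETDB1 libraries of that day and the less abundant in all controls, a difference of 2.06 (exact permutation test, two-sided, p = 0.1, the smallest possible; 0.16 adjusted over 8 comparisons). At day 7 the minus strand ratio was -1.47, -0.94 and -0.50 in SETDB1 libraries, against -0.75, -1.22 and -1.64 in controls (difference 0.23, exact permutation p = 0.6). In the SETDB1 arm the day 7 ratios lay below all day 4 ratios, by a log2 difference of -1.57 (exact permutation p = 0.1, the smallest possible). On the plus strand the ratio was lower in SETDB1 libraries than in control libraries, with log2 differences of -2.54 at day 4 and -3.61 at day 7, and the arms did not overlap (exact permutation p = 0.1 each, the smallest possible). SST1 plus strand itself was higher in the SETDB1 arm, by 3.58 ± 0.20 at day 4 and 4.23 ± 0.19 at day 7 (log2, SE, edgeR adjusted p = 5.20e-17 and 4.41e-20). ALR plus strand stood at 1.02 and 0.62 (log2) relative to the table, and its day 7 call was lost in the alternatives given above. What lowered the plus strand ratio was not tested. SST1 minus strand was at 0.37 ± 0.19 at day 4 and 0.90 ± 0.19 at day 7 (log2, SE, edgeR adjusted p = 0.185 and 0.000151). In the SETDB1 arm SST1 plus strand rose between day 4 and day 7 by 0.92 ± 0.14 (log2, SE, edgeR adjusted p = 2.93e-06). SST1 minus strand rose by 0.55 ± 0.17 (log2, SE, edgeR adjusted p = 0.0279), while ALR minus strand fell by 0.99. The fall of the minus strand ratio in this arm thus holds a change in both satellites. ALR plus strand, at -0.34 ± 0.19, did not pass (log2, SE, edgeR adjusted p = 0.215).

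**Figure D5:**
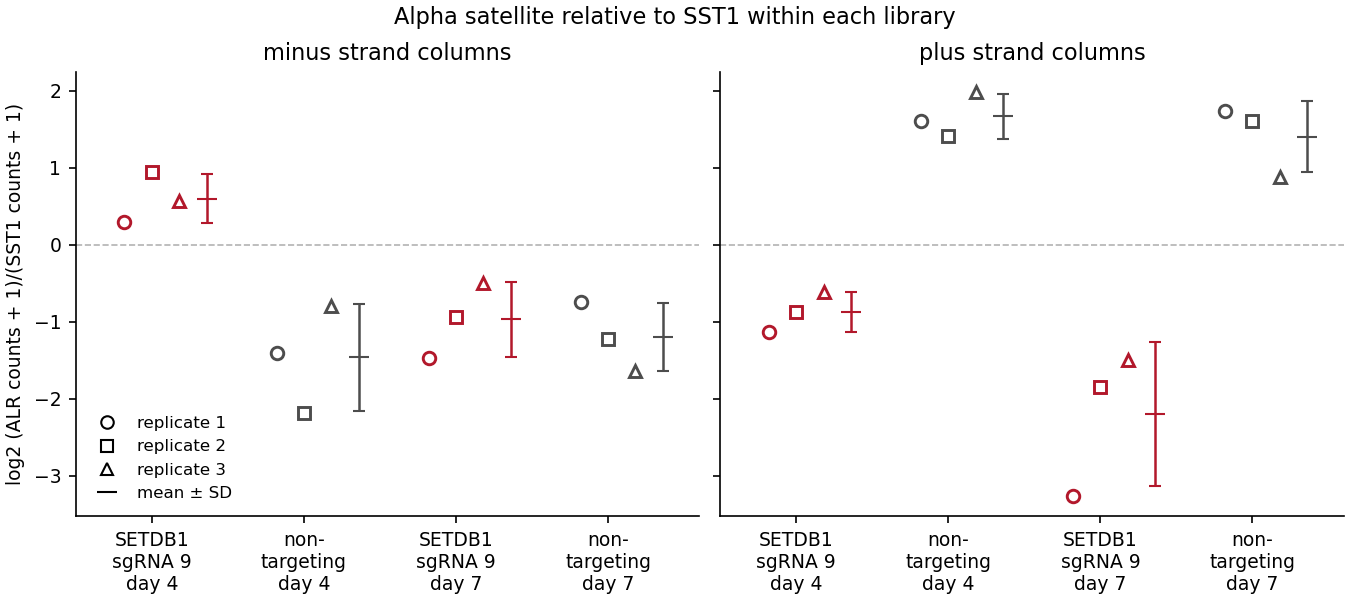
Log2 ratio of ALR to SST1 counts within each library, 1 added to both (y axis), for the minus columns (left) and plus columns (right) of the 4 groups (x axis). Open symbols are replicates, the bar beside them is the mean ± SD, and the dashed line marks equal counts. The minus strand ratio is above 0 in the 3 SETDB1 libraries of day 4 alone, and the plus strand ratio is above 0 in the non-targeting libraries alone.

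Across the 12 libraries the features whose log2 CPM was most like that of ALR minus strand were the plus strands of L1PBa_5end (Pearson r = 0.92) and LTR60 (0.87), a 5′ end model of LINE L1 and a long terminal repeat, followed by ALR plus strand (0.84). For ALR plus strand they were ALR minus strand (0.84), L1PBa_5end minus strand (0.77) and HERV3 plus strand (0.77). SST1 plus strand had r = 0.82 with ALR minus strand, 0.65 with ALR plus strand and 0.79 with CER plus strand. ALR minus strand had r = 0.59 with CER plus strand, 0.38 with SATR1 plus strand and -0.11 with SATR1 minus strand, while CER and SATR1 plus strands had r = 0.65. These are descriptions over libraries that fall into 4 groups and share their totals.

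In the deposited counts, with no scaling, ALR of both strands averaged 417 ± 95 counts per SETDB1 library and 90.3 ± 16 per non-targeting library at day 4, and 289 ± 125 per SETDB1 library and 106 ± 32 per non-targeting library at day 7 (SD, n = 3; two-sided exact permutation p = 0.1 at each day, the smallest possible, and 0.15 adjusted over 24 comparisons). The ratios of SETDB1 to control means were 4.62 at day 4 and 2.73 at day 7. The ratio of the minus strand alone was 8.63 at day 4 and 3.51 at day 7. For CER of both strands the ratios were 2.82 and 3.40, for SATR1 1.60 and 2.13, and for SATR2 2.25 and 2.05. These ratios also hold the difference in table totals between the arms. Fitted unscaled in edgeR with strands summed, the median log2 change over all 42 elements was 0.60 at day 4 and 0.82 at day 7. SATR1 was then at 0.68 and 1.09, and SATR2 at 1.15 and 1.02. The table totals were on average higher in the SETDB1 arm, and whether this is more repeat RNA or deeper sequencing cannot be told apart from these tables.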

How the data were processed

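Total RNA (100 ng) was made into stranded libraries per the labels' protocols. The authors deposited raw counts for each strand of an element, in 1 table per day. CASAVA 1.8, BWA and HTSeq are named, without roles, in the submitters' processing notes. The following were not given in the sources used here: the genome build, repeat models, treatment of reads with several placements, and choice of the 45 elements. All 24 count columns were matched by the sample description heading them (0 columns of other samples).

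edgeR 4.0.16 (R 4.3.3) was run on all 90 features. filterByExpr (minimum count 10, minimum total 15) left 70. Library sizes were table totals with TMM factors, and the 4 groups shared 1 quasi-likelihood fit (8 residual degrees of freedom; the biological variation had a coefficient of 11.4%). Benjamini-Hochberg adjustment ran over all features tested, with a threshold of 0.05. The SE was derived from the F statistic. Strand shares were fitted with 24 strand columns and a block per library over 39 elements, and summed strands over 42. Exact permutation tests used scipy 1.17.1. Scripts were tested on simulated data. The named features are all 8 satellite strands, SST1 and, for each ALR strand, the 3 features of highest Pearson correlation of log2 CPM (prior count 2). Alternatives were other scalings, filters, DESeq2 1.42.0, limma 3.58.1 on strand ratios, a replicate block and leaving out each library. The satellites and lists were chosen with earlier results of these data known. The 12 within-group pairs of libraries all differed beyond sampling noise (largest chi-square p = 9.82e-05).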

Additional observations from a re-analysis of the deposited data

Results flagged for a closer look

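The effect of SETDB1 sgRNA 9 on ALR minus strand differed between the days. It was 2.49 at day 4 and 1.19 at day 7, a log2 difference of -1.30 ± 0.30 (SE; edgeR interaction test, adjusted p = 0.00326). All 3 SETDB1 libraries lay above all 3 non-targeting libraries at each day, and the SETDB1 libraries of day 7 all lay below those of day 4. Over 19 alternatives the difference ranged from -1.49 to -1.10, with adjusted p between 0.000256 and 0.0285.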

How the results depend on the processing

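ALR minus strand at both days, its difference between the days, ALR plus strand at day 4 and CER plus strand at day 7 kept direction and call in every alternative run. For CER plus strand the limit given above remains. At day 7 it reached the low-count limit in 3 SETDB1 libraries and 0 control libraries. Libraries were left out after the filter on all 12 libraries, so those runs did not test its entry. The 48 results that changed direction concerned values that passed no threshold as reported. Those tested again under the alternative did not pass there either. The count ratio of SATR2 minus strand and the ALR to SST1 ratios among them were not tested again.

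Unscaled counts moved the median of all features to 0.65 at day 4 and 0.76 at day 7. They gave 3 satellites called higher at day 4 and 4 at day 7 with strands summed, where 20 and 26 of all 42 elements were called higher. SATR1 minus strand then stood at 0.55 and 0.57 and summed SATR1 at 0.68 (day 4). The 4 higher calls of day 7 became 2 without the low-count filter, where 11 of 85 features were higher. With the libraries of day 7 alone they became 2, where 11 of 70 features were higher. Leaving out 1 library gave 2 to 4 higher calls at day 7, beside 13 to 23 of all 70 features. Between the days in the SETDB1 arm it gave 1 to 2 lower calls, beside 1 to 16 of 70. The 2 came without non-targeting day 4 replicate 2, where 16 were lower. At day 7 it gave 0 to 1 strand shares higher and 0 to 1 lower, beside 2 to 4 and 6 to 11 of 39 elements. With strands summed it gave 1 to 2 (day 4) and 1 to 3 (day 7) higher calls, beside 4 to 11 and 5 to 14 of 42 elements.

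SATR1 minus strand changed direction at day 7 with table totals (0.075), with satellites left out of the scaling (0.050) and with the replicate block (0.034). Its difference between the days did so with DESeq2 size factors (-0.057), with no filter (-0.088) and in DESeq2 (-0.028), and its change in the SETDB1 arm with table totals (0.013). Summed SATR1 at day 4 did so with DESeq2 size factors (0.034). In the non-targeting arm ALR plus strand did so with table totals (-0.031), and SATR1 minus (0.011) and plus (0.0074) strands with no filter. The cause was not tested.

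Ranges over single libraries left out that crossed 0 were, for SATR1 minus strand, -0.31 to 0.16 at day 4, -0.28 to 0.32 at day 7, -0.30 to 0.38 for the difference, -0.35 to 0.13 in the SETDB1 arm and -0.46 to 0.072 in the control arm. For SATR1 plus strand they were -0.011 to 0.21 at day 4 and -0.52 to 0.066 in the control arm, for CER plus strand -0.12 to 0.70 in the SETDB1 arm, and for ALR plus strand -0.069 to 0.24 in the control arm. For strand shares at day 4 they were -1.61 to 0.95 for CER and -0.52 to 0.024 for SATR1, and for summed SATR1 -0.16 to 0.21. The ratio of SATR2 minus strand mean counts, which is not a log2 value, ranged from 0.90 to 2.70 at day 4 and so crossed equal means. The log2 difference in the ALR to SST1 ratio ranged from -0.0014 to 0.49 (minus, day 7), and between the days in the control arm from -0.10 to 0.59 (minus) and -0.43 to 0.0016 (plus).

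Deviations from the group means showed no pairing by replicate number. Correlations over 0.1 were found in 4 of 18 same-numbered pairs (-0.31 to 0.31) and 15 of 36 differently numbered pairs (-0.48 to 0.41). Of 12 libraries, 5 correlated best with their own number. With 3 libraries a group this cannot decide whether equal numbers shared a culture or batch. The replicate block changed no satellite call and gave 11 higher and 7 lower features at day 4 and 23 and 18 at day 7. CER and SATR2 have too few counts for firm values.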
